A study of Homo sapiens with 6 samples.

Results

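Laminins are the cross-shaped trimers of an alpha, a beta and a gamma chain that lay down the basement membrane, and integrins are the alpha-beta receptor pairs that hold cells to it. The 37 genes described here are 10 laminin chains (LAMA, LAMB and LAMC genes), 17 integrin alpha chains, 8 integrin beta chains, and DST and PLEC, which link integrins to keratin filaments in the hemidesmosome, the rivet that fixes a basal epithelial cell to its matrix. They were chosen by gene symbol, each represented by its feature on the array, from 18417 genes with a single symbol. The same rule covers 41 genes in the RefSeq table, and the other 4, COL17A1 and ITGA1 among them, were not analysed here.

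The study hybridised total RNA of cultured human prostate cells to 6 arrays, 1 colour each. RWPE-1 comes from normal prostate epithelium immortalised with a human papillomavirus and forms no tumours, and its 3 untreated arrays were taken at passages 18, 38 and 42. CAsE-PE is the malignant descendant of RWPE-1, kept continuously in 5 µM sodium arsenite, and its 3 arrays came from 30, 33.5 and 35 weeks of exposure. Both were cultured in a serum-free keratinocyte medium with pituitary extract and epidermal growth factor, and both descend from the same immortalised line, so every array carries that background. The labels give neither the passage of the exposed cells nor untreated cells of matched age, and they do not say that the arrays of a group were separate cultures. The p-values therefore measure only the spread between these arrays, which may be partly technical, and arsenite, transformation and time in culture cannot be told apart.

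A laminin trimer is named by its chains, so that laminin 511 holds LAMA5, LAMB1 and LAMC1. Integrins α3β1, α6β1 and α6β4 bind laminins, α2β1 binds collagen, and α5β1 and the αv integrins bind the RGD sequence of fibronectin and related proteins. In the normal prostate, basal cells carry α6β4 in hemidesmosomes, and loss of β4 is a known feature of invasive prostate cancer. Values are log2(intensity + 1), differences are CAsE-PE minus RWPE-1 with the standard error (SE) of a limma fit across all genes, n = 3 per group, and a gene was called when its Benjamini-Hochberg adjusted p over all 18417 genes was under 0.05. For the neighbour shift of a gene, the deviation of the 24 nearest brighter genes on its chromosome (those outside the dimmest 33.3%) from their own means was taken as a median on each array, and the shift is the CAsE-PE mean of these medians minus the RWPE-1 mean. In bulk RNA, fewer cells that express a gene and less RNA per cell cannot be told apart.

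Array medians lay between 91.7 and 97.2 intensity units, and log2 values correlated at 0.985 to 0.995 within groups and at 0.956 to 0.969 across them. The intensities came without a detection call, so a dim gene may be at background. Of the basal markers with a value, KRT5 differed by −0.12 (SE 0.11, adjusted p = 0.443), whereas KRT14 fell by 1.60 and KRT15 fell by 1.77. Of 4 general epithelial markers, CDH1 was higher by 0.39 (adjusted p = 0.0186; not past the threshold without passage 18, passage 38 or week 35, and 0.20 with the shift of its neighbours taken off, adjusted p = 0.216), and EPCAM, KRT8 and KRT18 were not called. Of 8 leukocyte markers, 2 were lower, CD14 (−0.43) and CD68 (−0.89), and 0 higher. Over all genes 8.71% were lower and 9.04% higher. The CD14 call did not hold without passage 18, passage 38 or week 35, nor with the neighbour shift taken off. The log2 values of the 8 markers summed to 48.78 to 49.53 in RWPE-1 and 45.72 to 47.44 in CAsE-PE. CD68 and CD14 had the largest falls in that sum, and only 1 of the 8 lay outside the dimmest 33.3% of genes. PTPRC, the pan-leukocyte surface gene, lay between 3.73 and 3.99 on the 6 arrays.

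The promoter windows of 4 called members are shown so that their base composition and motifs can be seen beside the values that follow. These 4 were not picked by a rule, and other called members with a window, ITGA4 among them, are not shown. LAMB3, LAMB2 and ITGB1 fell in CAsE-PE and ITGA5 rose. Each line holds the 250 bases before an annotated start, 5′ to 3′ on the gene's own strand, and every one of the 4 genes lies on the minus strand of GRCh38.p14. LAMB3 is at chr1:209651375-209651624 and is 1 of 3 starts listed for that gene, LAMB2 at chr3:49133051-49133300, ITGB1 at chr10:32958231-32958480, 1 of 2 starts, and ITGA5 at chr12:54419267-54419516. For ITGB1 the window with the most motif matches is shown, and for LAMB3 1 of the windows tied for the most. Capitals mark the letters TGANTCA, the AP-1 motif, and GGGCGG, the GC box bound by SP1 family factors, on either strand.
LAMB3: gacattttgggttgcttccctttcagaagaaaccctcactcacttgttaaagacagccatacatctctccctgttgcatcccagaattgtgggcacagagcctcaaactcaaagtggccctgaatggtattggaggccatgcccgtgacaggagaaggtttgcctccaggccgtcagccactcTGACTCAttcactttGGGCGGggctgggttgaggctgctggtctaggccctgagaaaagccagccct
LAMB2: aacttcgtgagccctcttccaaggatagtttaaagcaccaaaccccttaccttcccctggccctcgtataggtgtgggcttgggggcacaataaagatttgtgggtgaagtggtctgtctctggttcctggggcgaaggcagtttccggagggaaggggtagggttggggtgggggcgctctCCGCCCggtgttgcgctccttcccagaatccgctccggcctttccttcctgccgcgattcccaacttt
ITGB1: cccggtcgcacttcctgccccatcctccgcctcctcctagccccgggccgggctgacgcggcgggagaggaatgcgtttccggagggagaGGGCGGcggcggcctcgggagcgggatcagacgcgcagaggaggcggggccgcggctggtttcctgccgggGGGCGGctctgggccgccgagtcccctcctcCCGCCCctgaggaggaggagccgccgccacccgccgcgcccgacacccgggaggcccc
ITGA5: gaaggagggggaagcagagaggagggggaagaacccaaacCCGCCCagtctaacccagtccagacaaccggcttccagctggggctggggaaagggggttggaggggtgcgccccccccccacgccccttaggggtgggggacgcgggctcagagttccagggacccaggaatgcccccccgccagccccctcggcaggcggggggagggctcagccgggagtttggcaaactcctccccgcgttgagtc
The LAMB3 window held a TGACTCA match beginning 67 bases before the start and a GC box at 52 bases. The window of LAMB2 held 1 GC box at 68 bases, that of ITGB1 held 3, at 160, 89 and 58 bases, and that of ITGA5 held 1 at 210 bases. Matches to TGANTCA occurred in 6.57% of all 35116 windows and in 1 of the 34 windows of 25 members, the LAMB3 window shown. GGGCGG occurred in 42.6% of all windows and in 17 of the 34, and CACCTG, a motif of SNAI and ZEB repressors that none of the shown windows holds, in 17.5% and in 7 of the 34. Another LAMB3 window, with as many matches as the one shown, held 1 CACCTG and 1 GC box. The GC box stood in windows of genes that fell, rose or were not called. The window of ITGA4, which also fell, held 0 matches to the 3 motifs. ITGB1 had 32 CpG pairs in its window, LAMB2 and ITGA5 had 12 each, and LAMB3 had 3. The median was 9.5 over the members' windows and 11 over all windows.

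Among the 37 members, more were lower than higher in CAsE-PE. In all 12 were called lower and 2 higher, with 23 not called. Over all genes 17.7% were called, 8.71% lower and 9.04% higher, against 32.4% lower and 5.41% higher of the members. The 5 falls of at least 2-fold were LAMA1, LAMB2, ITGA4, LAMB3 and ITGB6, and neither rise reached 2-fold. In limma's test against a 1.5-fold change, LAMA1, LAMB2, LAMB3 and ITGA4 passed the threshold, with adjusted p-values of 1.96e-05, 0.00023, 0.00849 and 0.00552, and the other 10 called members did not (0.495 for ITGB1, 0.571 for ITGB6 and 1.0 for the rest). Ranges of adjusted p below leave this test out. Differences were negative for 29 members and positive for 8, where 59.5% of all genes were negative, and the median difference was −0.19 against −0.06 over all genes. After centring on array medians 27 members were negative and their median was −0.14, against −0.01 over all genes. The groups did not overlap for 22 members, and for 38.9% of all genes. Relative to the RWPE-1 mean, the median member stood at −0.17 at 30 weeks, −0.19 at 33.5 weeks and −0.24 at 35 weeks, with all genes at −0.07, −0.03 and −0.08.

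**Figure D1:**
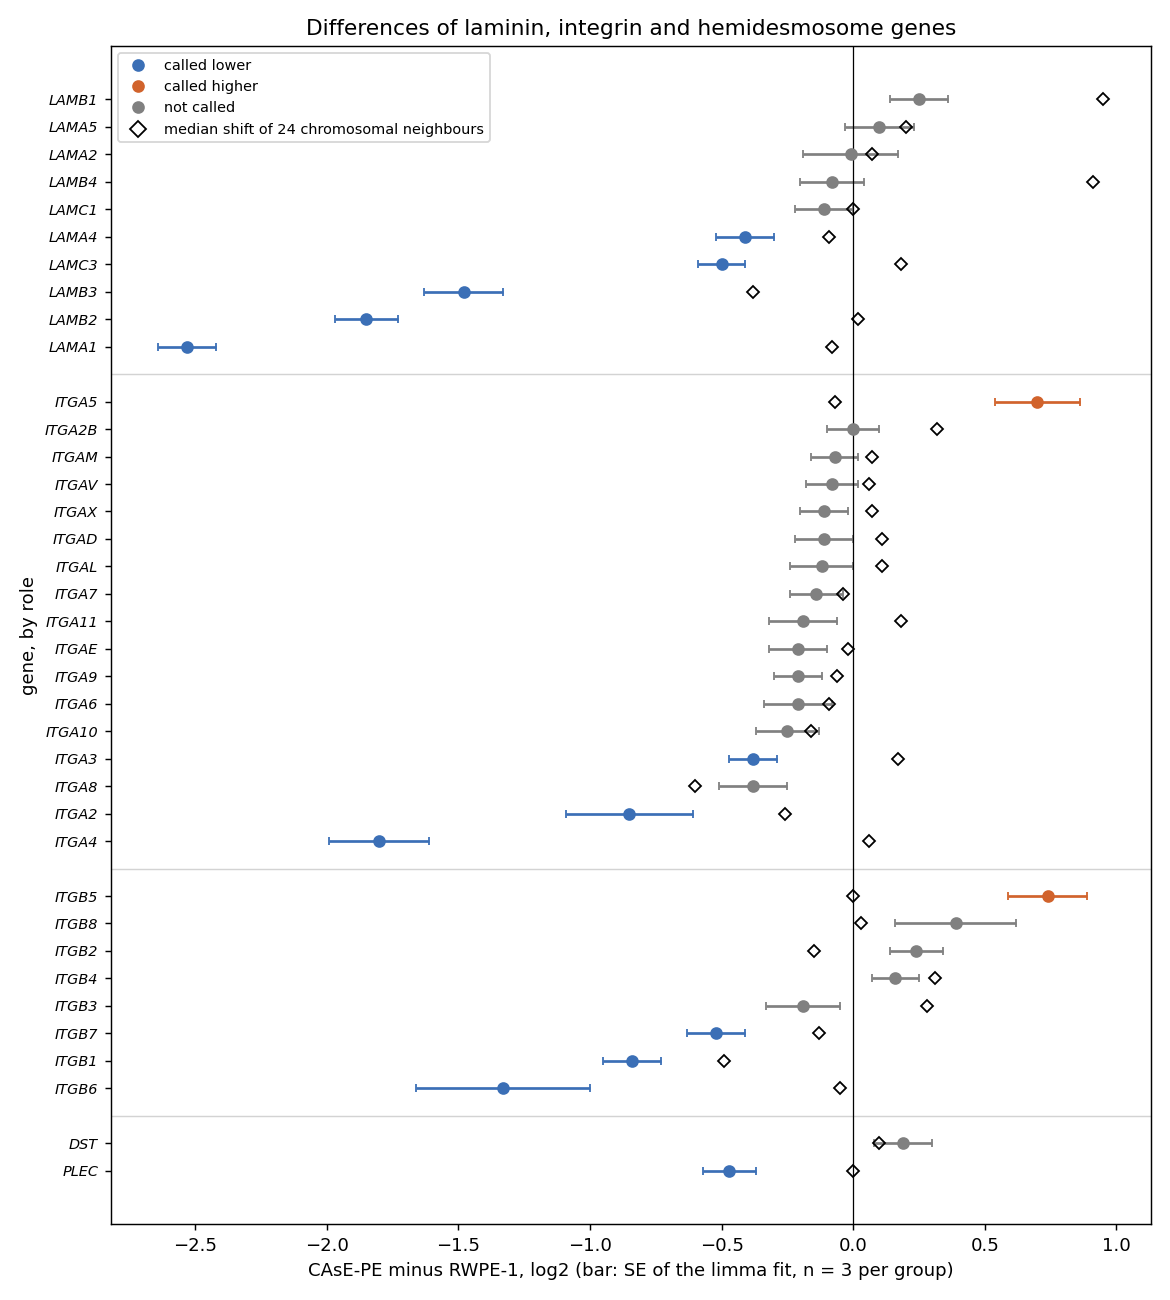
Difference between CAsE-PE and RWPE-1 on the log2 scale (x axis) for each of the 37 genes (y axis, by role), with bars for the SE of the limma fit and open diamonds for the shift of the 24 nearest brighter genes on the chromosome. Of the members, 12 were called lower and 2 higher, and the diamonds of LAMB1 and LAMB4 lie far to the right of their own points, at 0.95 and 0.91.

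Of the 10 laminin chains, 5 fell (50.0%, against 8.71% of all genes) and 0 rose (9.04% of all genes). LAMA1, the alpha chain of the embryonic type laminins 111 and 121, had the largest fall of any member. In the order of passages 18, 38 and 42 its RWPE-1 values were 8.10, 8.27 and 8.27, and at 30, 33.5 and 35 weeks the CAsE-PE values were 5.80, 5.68 and 5.57. The groups lay far apart and each was tight, with means of 8.21 ± 0.10 (SD) and 5.68 ± 0.12. The difference was −2.53 (SE 0.11, adjusted p = 4.58e-06), or 5.77-fold. LAMA1 is on chromosome 18, its difference was below that of each of its 24 neighbours, and the neighbour shift was −0.08.

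LAMB2, the beta chain that replaces LAMB1 in laminins 121, 221, 421 and 521, fell as well. It read 8.33, 8.29 and 8.59 in RWPE-1 and 6.67, 6.54 and 6.46 in CAsE-PE, again with no overlap. The difference was −1.85 (SE 0.12), or 3.60-fold (adjusted p = 2.09e-05). Of its 24 neighbours on chromosome 3, 0 were called in either direction, and the difference of LAMB2 was below all of theirs. LAMB1, the other common beta chain, was not called. It read 9.74, 9.84 and 9.68, then 9.82, 10.10 and 10.10, a difference of 0.25 (SE 0.11, adjusted p = 0.155). With its neighbour shift of 0.95 taken off, LAMB1 was called lower, at −0.69 (adjusted p = 0.0122).

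LAMB3, a beta chain of epithelial laminin, read 10.23, 10.17 and 10.04 in RWPE-1 and 9.01, 8.52 and 8.48 in CAsE-PE. Every CAsE-PE array was below every RWPE-1 array, and the 30-week array was the nearest to the untreated cells. The difference was −1.48 (SE 0.15), or 2.78-fold (adjusted p = 0.000266). With the shift of its neighbours on chromosome 1 (−0.38) taken off, it still differed by −1.10 (adjusted p = 0.00101; 6.30e-06 to 0.00249 over 15 alternatives that test against no change).

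The remaining falls among laminins were smaller. LAMC3, a gamma chain of limited tissue range, read 7.46, 7.57 and 7.46 and then 7.02, 7.03 and 6.95 (difference −0.50, SE 0.09, adjusted p = 0.00704). LAMA4, the alpha chain of vessel-type laminins 411 and 421, was dim throughout, at 5.75, 5.83 and 5.57 and then 5.20, 5.34 and 5.39. Its difference of −0.41 (SE 0.11, adjusted p = 0.0322) did not pass the threshold without passage 18 (0.0929), passage 38 (0.134), week 30 (0.0746), week 33.5 (0.0707) or week 35 (0.0625), nor with the shift of its neighbours taken off (0.0654). Adjusted p-values for LAMA4 ranged from 0.00431 to 0.134 over 14 alternatives that test against no change.

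The 3 chains of laminin 511, a widespread epithelial laminin, were not called. LAMA5 read 9.39, 9.49 and 9.85 in RWPE-1 and 9.62, 9.72 and 9.71 in CAsE-PE, with overlapping groups and a difference of 0.10 (95% interval −0.19 to 0.40). LAMC1, the gamma chain that most laminins share, read 9.84, 9.77 and 9.80 and then 9.86, 9.61 and 9.61, a difference of −0.11 (95% interval −0.35 to 0.13). These intervals leave out changes of the size seen for LAMA1, LAMB2 and LAMB3. LAMA2, the muscle-type alpha chain, and LAMB4 were dim, at 5.26 to 5.92 and 4.65 to 5.02, and differed by −0.01 and −0.08. LAMA2 stood apart at 30 weeks, with 5.92 against 5.30 and 5.26 later.

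**Figure D2:**
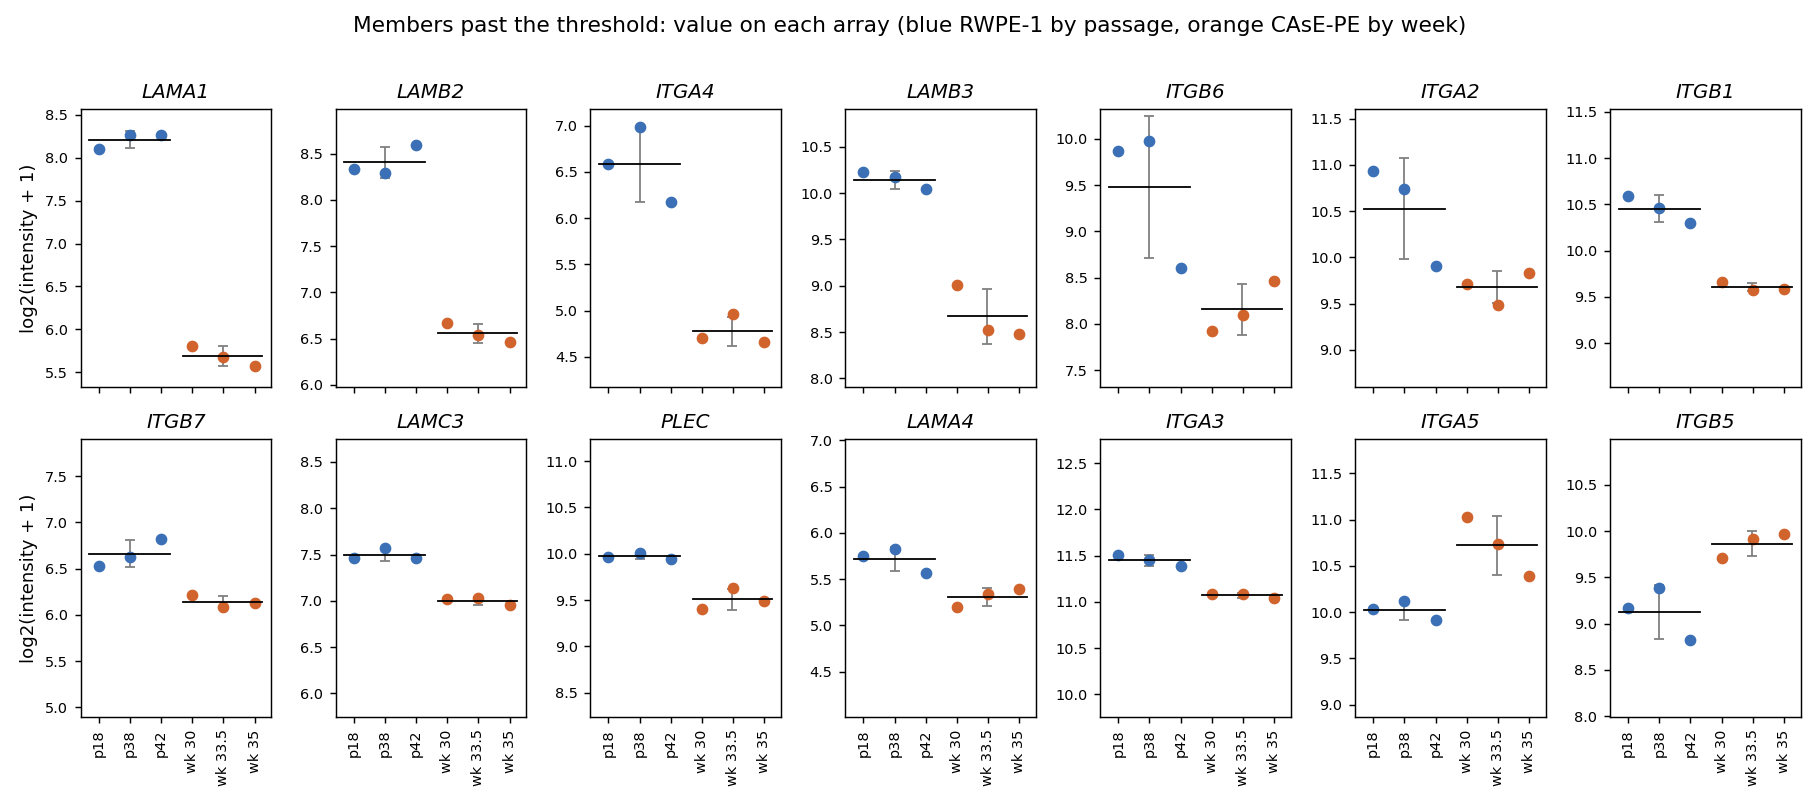
Value on each array, log2(intensity + 1), of the 14 members past the threshold, ordered from the deepest fall to the rises; blue points are RWPE-1 at passages 18, 38 and 42, orange points CAsE-PE at 30, 33.5 and 35 weeks, lines the group means and grey bars the SD (n = 3). The y axes differ in range and do not start at 0; in ITGB6 and ITGA2 the passage 42 array lies near the CAsE-PE arrays, at 8.60 and 9.91.

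The common integrin beta chain ITGB1, partner of most laminin, collagen and fibronectin receptors, fell. It read 10.59, 10.46 and 10.30 in RWPE-1 and 9.66, 9.57 and 9.59 in CAsE-PE. The groups did not overlap, and the difference was −0.84 (SE 0.11), or 1.79-fold (adjusted p = 0.000926). Its neighbours on chromosome 10 were lower as well: 16 of 24 were called lower and 3 higher, with a neighbour shift of −0.49. With that shift taken off, ITGB1 differed by −0.36 (adjusted p = 0.0431; 6.46e-05 to 0.0431 over 15 alternatives that test against no change).

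Of the 4 chains of laminin-binding integrins besides ITGB1 (ITGA3, ITGA6, ITGA7 and ITGB4), ITGA3 fell. ITGA3, which pairs with ITGB1 as a receptor for laminins, 511 among them, read 11.51, 11.45 and 11.39 and then 11.09, 11.08 and 11.04. The groups were narrow and separate, and the difference was −0.38 (SE 0.09, adjusted p = 0.0232). This call did not hold without passage 18 (0.0843), passage 38 (0.0878), week 33.5 (0.0608) or week 35 (0.0817). The neighbours of ITGA3 on chromosome 17 moved the other way, with 7 of 24 called higher, 0 lower and a neighbour shift of 0.17. Against them ITGA3 differed by −0.54 (adjusted p = 0.00685; 0.00468 to 0.0878 over 15 alternatives that test against no change).

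The pair α6β4, the laminin receptor of hemidesmosomes, did not pass the threshold in either chain. ITGA6 read 11.39, 11.33 and 10.98 in RWPE-1 and 10.94, 10.96 and 11.17 in CAsE-PE, and the passage 42 array lay among the CAsE-PE arrays. Its difference was −0.21 (95% interval −0.51 to 0.09, adjusted p = 0.308). ITGB4 read 11.16, 11.21 and 11.21 and then 11.40, 11.32 and 11.35, slightly higher on every CAsE-PE array. The difference was 0.16 (95% interval −0.05 to 0.37, adjusted p = 0.260). Among its neighbours on chromosome 17, 11 of 24 were called higher and 0 lower, with a neighbour shift of 0.31, and with this taken off ITGB4 differed by −0.15 (adjusted p = 0.329; 0.145 to 0.427 over 15 alternatives that test against no change). ITGA7, the muscle laminin receptor chain, differed by −0.14 and was dim.

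Of the 2 hemidesmosome plaque genes, PLEC fell and DST was not called. PLEC, encoding plectin, which ties β4 to keratins, read 9.97, 10.01 and 9.94 in RWPE-1 and 9.40, 9.63 and 9.49 in CAsE-PE. Its groups were separate, and it fell by 0.47 (SE 0.10, adjusted p = 0.0129). Without passage 38 the adjusted p was 0.0630 (0.00266 to 0.0630 over 15 alternatives that test against no change). DST, whose epithelial product BP230 anchors keratins beside plectin but whose gene also makes neuronal and muscle forms, read 8.67, 8.62 and 8.63 and then 8.78, 8.71 and 8.99. The CAsE-PE arrays were the higher ones, by 0.19 (SE 0.11), without passing the threshold (adjusted p = 0.253). CD151, the tetraspanin that joins α3β1 and α6β4 at the membrane, fell by 0.41 (SE 0.11, adjusted p = 0.0305), a call that did not hold without passage 18, passage 38, week 30 or week 33.5, nor with the neighbour shift taken off (−0.32, adjusted p = 0.118).

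Among collagen receptors, ITGA2 was lower, with a wide spread in RWPE-1. It read 10.93, 10.74 and 9.91 and then 9.71, 9.49 and 9.83. The passage 42 array lay close to the CAsE-PE arrays, although the groups did not overlap. The difference of −0.85 (SE 0.24) had an adjusted p of 0.0360, and the call held without passage 42 but not without any other single array (0.105 without passage 18, 0.130 without passage 38, 0.0608 without week 30, 0.103 without week 33.5, 0.0703 without week 35). With the neighbour shift of −0.26 on chromosome 5 taken off, the difference was −0.59 (adjusted p = 0.0704; 0.00103 to 0.130 over 15 alternatives that test against no change). ITGA10 and ITGA11, collagen receptor chains of cartilage and fibroblasts, were dim and differed by −0.25 and −0.19 without being called.

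Receptors for RGD ligands held the 2 rises. ITGA5, the fibronectin receptor chain, read 10.03, 10.12 and 9.91 in RWPE-1 and 11.03, 10.74 and 10.39 in CAsE-PE. All CAsE-PE arrays were above all RWPE-1 arrays, most of all at 30 weeks. The difference was 0.70 (SE 0.16), or 1.62-fold (adjusted p = 0.0147). ITGA5 pairs with ITGB1 alone, and that chain fell. Of the 24 neighbours of ITGA5 on chromosome 12, 0 were called higher, and the difference of ITGA5 was above all of theirs.

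ITGB5 and ITGB6, 2 alternative partners of ITGAV, moved in opposite directions. ITGB5, a vitronectin receptor chain, read 9.17, 9.39 and 8.82 and then 9.71, 9.91 and 9.97, a rise of 0.74 (SE 0.15), or 1.67-fold (adjusted p = 0.0101). ITGB6, an epithelial chain whose pair αvβ6 binds and activates latent TGF-beta, read 9.87, 9.98 and 8.60 and then 7.92, 8.09 and 8.46. Its groups did not overlap, but the passage 42 and 35-week arrays were close. The difference was −1.33 (SE 0.33), or 2.51-fold (adjusted p = 0.0218). ITGB6 did not pass the threshold without passage 18 (0.0701), passage 38 (0.0839), week 30 (0.0529) or week 33.5 (0.0595).

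ITGAV itself, the shared alpha chain, read 9.43, 9.49 and 9.42 in RWPE-1 and 9.38, 9.24 and 9.49 in CAsE-PE, a difference of −0.08 (95% interval −0.31 to 0.15). ITGB8, another partner of ITGAV that also serves TGF-beta activation, read 8.68, 8.52 and 9.42 and then 9.34, 8.97 and 9.46. Here too the passage 42 array resembled the CAsE-PE arrays, and the difference of 0.39 (SE 0.23) was not called (adjusted p = 0.268), but was without passage 42 and with array weights. ITGB3, the chain of platelets and of αvβ3, was dim at 5.11 to 5.56 and differed by −0.19 (adjusted p = 0.374). With array weights ITGB3 was called lower, at −0.34 (adjusted p = 0.0333). ITGA8 differed by −0.38 (adjusted p = 0.0798), with 15 of its 24 neighbours on chromosome 10 called lower and a neighbour shift of −0.60. ITGA2B, the platelet alpha chain, and ITGA9, a receptor chain for tenascin and VCAM1, differed by −0.00 and −0.21 and were not called.

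ITGA4, the alpha chain that binds VCAM1 and fibronectin and is best known from leukocytes and migrating cells, had the deepest fall among the integrins. Its values were 6.59, 6.98 and 6.17 in RWPE-1 and 4.71, 4.96 and 4.66 in CAsE-PE. The groups were well apart, with a difference of −1.80 (SE 0.19), or 3.48-fold (adjusted p = 0.000318). Since the CAsE-PE values lay in the dim range of the arrays, where no detection call separates signal from background, the size of this fall may be understated. Its neighbours on chromosome 2 had a neighbour shift of 0.06.

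Of the 7 chains otherwise typical of leukocytes, 1 fell (14.3%, against 8.71% of all genes) and 0 rose (9.04% of all genes). ITGB7, which pairs with ITGA4 or ITGAE, read 6.53, 6.63 and 6.82 and then 6.21, 6.08 and 6.13. The difference was −0.52 (SE 0.11, adjusted p = 0.0112), and −0.39 with the shift of its neighbours taken off (adjusted p = 0.0488; 0.00211 to 0.0488 over 15 alternatives that test against no change). ITGB2, the beta chain of the αL, αM, αX and αD pairs, read 6.43, 6.31 and 6.42 and then 6.64, 6.71 and 6.54. It was higher by 0.24 without being called (adjusted p = 0.124), and was called at 0.39 with the neighbour shift of −0.15 taken off (adjusted p = 0.0342; 0.0342 to 0.321 over 15 alternatives that test against no change). ITGAE, ITGAL, ITGAM, ITGAX and ITGAD differed by −0.21, −0.12, −0.07, −0.11 and −0.11, and none was called. The leukocyte markers given above held no rise, and their part in the fall of ITGA4 and ITGB7 was not tested.

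**Figure D3:**
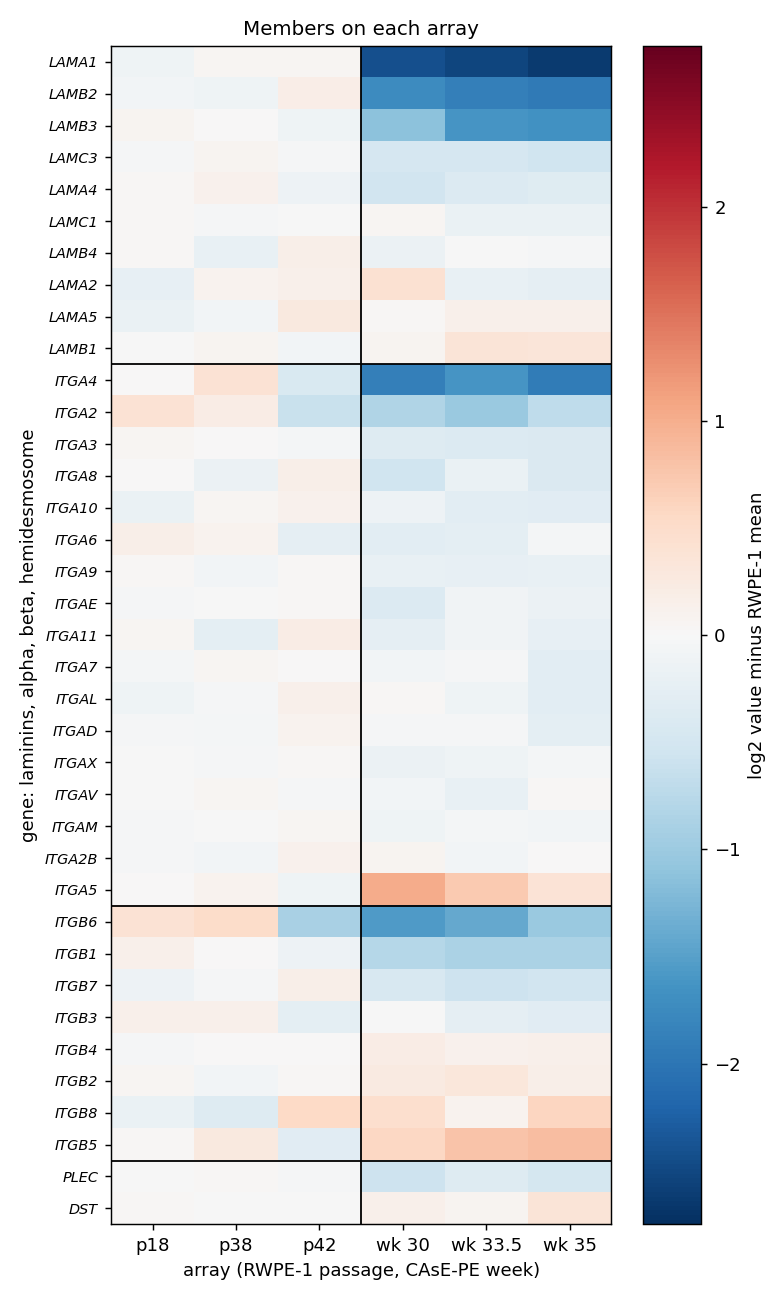
Log2 value of each member on each array minus its RWPE-1 mean (colour scale, blue lower and red higher); rows are the 37 genes by role, columns the 3 RWPE-1 passages and the 3 CAsE-PE exposure times. LAMA1, LAMB2, LAMB3 and ITGA4 are blue on all 3 CAsE-PE arrays, palest for LAMB3 at 30 weeks (−1.13). On the passage 42 array, ITGA2 (−0.62), ITGB6 (−0.89) and ITGB8 (0.54) stand away from the RWPE-1 mean.

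Set side by side by assembly, the receptor pairs differed in which chains were called. Both measured chains were called lower for α3β1, α2β1, α4β1 and α4β7. For α5β1 the alpha chain rose and the beta chain fell, and for αvβ5 and αvβ6 the shared alpha chain was not called while the beta chains rose and fell. Neither chain was called for α6β4, αvβ3, αvβ8, the platelet pair or the 4 pairs of ITGB2. Of the trimers with LAMC1 and 3 measured chains, laminin 121 (LAMA1, LAMB2, LAMC1) and laminin 421 (LAMA4, LAMB2, LAMC1) had 2 chains called lower. Laminins 111, 221, 411 and 521 had 1, and laminins 211 and 511 had 0. Trimers that hold LAMC3, itself called lower, were not counted. These counts are of transcripts, and protein assembly was not measured. Among the calls counted, those of ITGA2, ITGA3, ITGB6 and LAMA4 did not hold without several of the single arrays, as given above.

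Several members lie in stretches of the genome whose genes moved together, and the value of the member and of its stretch differed. Over 18365 genes the neighbour shift lay between −0.45 and 0.49 in the central 95%, and 4 members were outside that range: ITGA8 (−0.60) and ITGB1 (−0.49) on chromosome 10, and LAMB1 (0.95) and LAMB4 (0.91) on chromosome 7. Around LAMB1, 20 of 24 neighbours were called higher and 1 lower, while LAMB1 itself was not called and its difference lay below those of 22 of them. With the shift taken off, LAMB1 was called lower, at −0.69 (SE 0.15, adjusted p = 0.0122; 0.0122 to 0.371 over 15 alternatives that test against no change). LAMB4 was then also called lower, at −0.99 (adjusted p = 0.00401; 0.00401 to 0.975 over 14 alternatives that test against no change), although its own values did not leave 4.65 to 5.02, so this number is that of its neighbours' shift. Around LAMB3, 11 of 24 neighbours were lower and 2 higher, and the difference of LAMB3 was below all of theirs.

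Counted with the shift taken off, 12 members were lower and 3 higher, against 10.3% and 7.38% of the genes tested in that way. ITGA2 and LAMA4 left the calls, and LAMB1, LAMB4 and ITGB2 entered them. LAMA1, LAMB2, LAMB3, LAMC3, ITGA3, ITGA4, ITGB1, ITGB6, ITGB7 and PLEC were lower in both counts, and ITGA5 and ITGB5 higher in both. Across the 37 members, the difference and the neighbour shift had a Pearson correlation of 0.30, given as a description, since the points come from the same 6 arrays and adjacent members share neighbours.

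**Figure D4:**
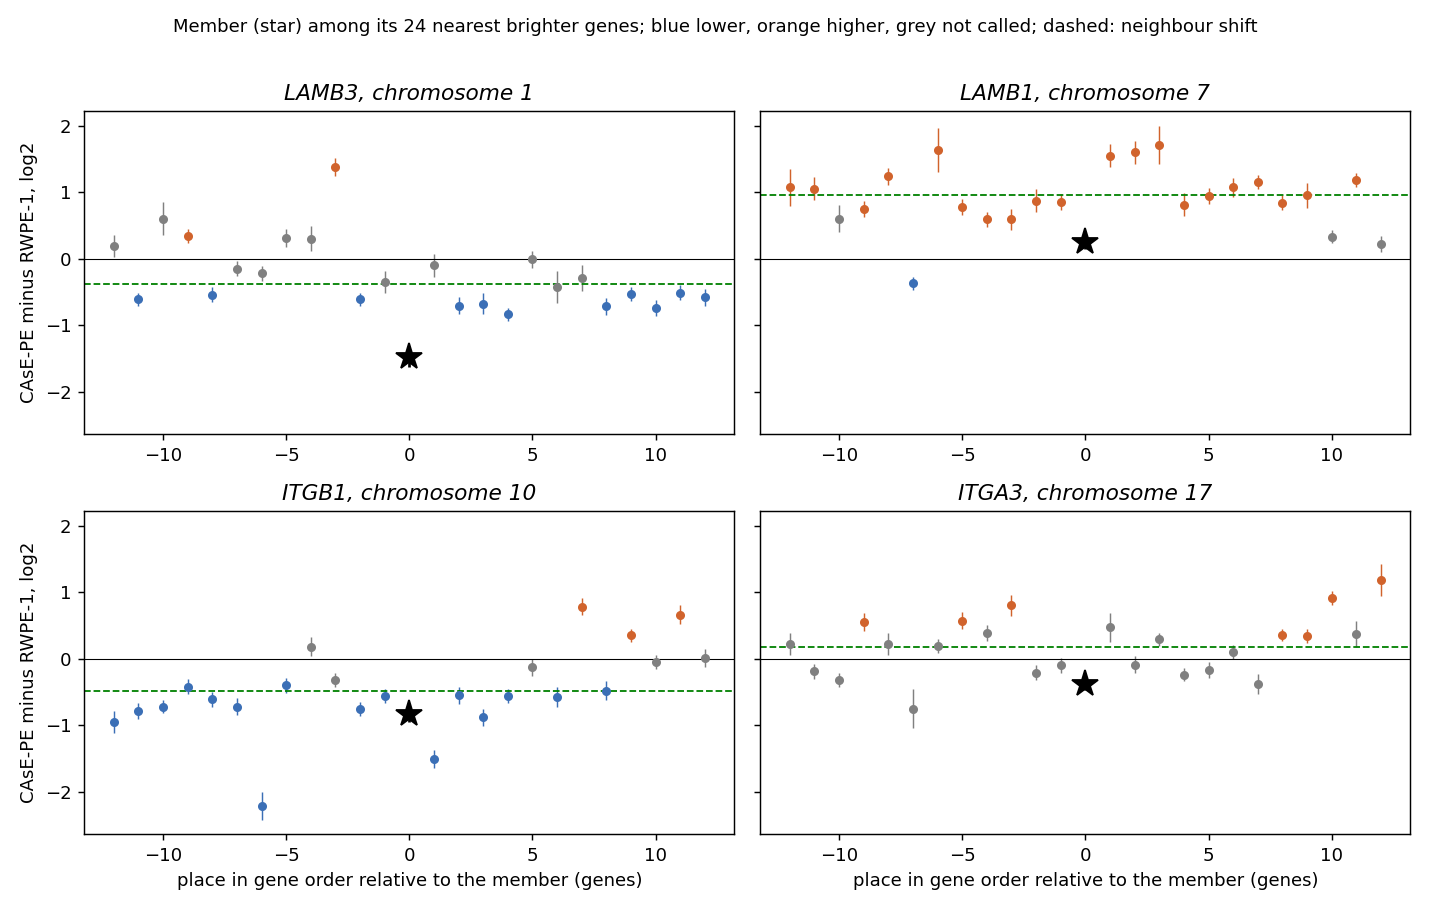
Difference between CAsE-PE and RWPE-1 on the log2 scale (y axis, bars SE) for LAMB3, LAMB1, ITGB1 and ITGA3 (stars) and the 24 nearest brighter genes of each, in gene order along the chromosome (x axis, places from the member); blue points were called lower, orange higher and grey neither, and the dashed line is the neighbour shift. LAMB3 lies below all its neighbours, LAMB1 below 22 of 24, ITGB1 within a lowered stretch and ITGA3 below 22 of 24.

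Across time within each group, no member passed the threshold. A limma model that added slopes for passage (RWPE-1) and for weeks (CAsE-PE) to the group term left 2 residual degrees of freedom. In it 0 of 37 members had a passage trend and 0 a weeks trend, against 0.0217% and 0.250% of all genes. At an unadjusted p under 0.05 there were 1 and 3 members, against 5.82% and 11.3% of all genes. The 1 for passage was ITGA2, with a slope of −0.32 per 10 passages (adjusted p = 0.833). The 3 for weeks were LAMA2 (−0.14 per week, adjusted p = 0.172), ITGA5 (−0.12, 0.262) and LAMB3 (−0.11, 0.270). Passage has 2 close values and 1 far one, so its slope rests mainly on the passage 18 array.

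Of 25 measured genes that work beside laminins in the basement membrane, 9 were lower (36.0%) and 3 higher (12%), against 8.71% and 9.04% of all genes, and the median difference was −0.18 against −0.06. FRAS1, which anchors epithelium to the membrane in development, fell by 2.28 (SE 0.11), NID1, the nidogen that bridges laminin and collagen IV, fell by 1.16 (SE 0.12), and SPARC, a collagen-binding matrix protein, had the deepest fall, at −3.86 (SE 0.12). The collagen IV pair COL4A1 and COL4A2 fell by 0.79 and 0.85, and by 0.42 and 0.49 with their neighbours' shift of −0.36 taken off. SMOC1 (1.54, SE 0.25), FBLN1 (1.27, SE 0.13) and NTN4 (0.78, SE 0.16), a netrin that binds laminin gamma chains, rose, the last not without passage 38.

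Inside the cell, of 38 integrin adaptor genes 8 were lower (21.1%, against 8.71% of all genes) and 3 higher (7.89%, against 9.04%), with a median of −0.11. The kindlins, which bind beta tails with talin to switch integrins on, moved in opposite directions. FERMT1, the epithelial kindlin, averaged 9.72 ± 0.40 (SD, n = 3) in RWPE-1 and 7.89 ± 0.64 in CAsE-PE, a difference of −1.83 (SE 0.30, adjusted p = 0.00342). FERMT2, the widespread kindlin, averaged 8.21 ± 0.13 and 9.49 ± 0.27, a rise of 1.27 (SE 0.15, adjusted p = 0.000525). Both calls held with 1 array left out and with the neighbour shift taken off, when the differences were −1.21 and 1.09. LPXN, a paxillin relative, fell by 1.83 (SE 0.29), and DAB2, an endocytic adaptor of integrins, fell by 1.01 (SE 0.21). KANK1 rose by 0.63 and the talin gene TLN2 by 0.43, the latter not without passage 18, passage 38, passage 42, week 30 or week 35. With the neighbour shift taken off neither was called, KANK1 at 0.39 (adjusted p = 0.0748) and TLN2 at 0.18 (adjusted p = 0.332).

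Of 33 integrin ligands other than laminins, 5 were lower (15.2%, against 8.71% of all genes) and 3 higher (9.09%, near the 9.04% of all genes), with a median of −0.14. The microfibril gene FBN2 fell by 2.85 (SE 0.22) and LTBP1, a carrier of latent TGF-beta, by 0.89 (SE 0.15). TNC, tenascin-C, fell by 1.25, a call that did not hold without passage 18, passage 38, week 33.5 or week 35. CCN1 fell by 1.02 (SE 0.29) with overlapping groups, and its call was lost without the same arrays. TGFBI rose by 1.46 (SE 0.19), MFGE8, a ligand of αv integrins, rose by 0.54 (SE 0.10), and CDH1, a ligand of ITGAE on other cells, is given above. Of 20 other laminin receptors and membrane partners, 6 were lower (30.0%) and 1 higher (5.0%), against 8.71% and 9.04% of all genes, with a median of −0.17, and 0 changed by 2-fold. The Lutheran antigen BCAM, a receptor for LAMA5, fell by 0.64 (SE 0.17), the syndecan SDC3 fell by 0.47 (SE 0.12), and the tetraspanin CD9 was higher by 0.36 (SE 0.10). All 7 calls of this list were lost without some single array. With the neighbour shift taken off CD9 differed by 0.09 (adjusted p = 0.626) and SDC3 by −0.38 (adjusted p = 0.0511).

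Of 16 genes of laminin and integrin processing, 6 were lower (37.5%, against 8.71% of all genes) and 0 higher (9.04% of all genes), with a median of −0.26. BMP1, a secreted metalloproteinase, fell by 0.45 (SE 0.10), and MMP14, a membrane metalloproteinase, fell by 0.83 (SE 0.18). PLAU, the urokinase gene, fell by 0.69 (SE 0.12) and ADAMTS1 fell by 2.23 (SE 0.13). MMP2 (−0.62, adjusted p = 0.0475) and ADAM9 (−0.36, adjusted p = 0.0468) were lower as well. The MMP2 call did not hold without passage 18, passage 38, week 30, week 33.5 or week 35. That of ADAM9 did not hold without passage 18, passage 38, week 30 or week 35, nor with the neighbour shift taken off (adjusted p = 0.0793).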

How the data were processed

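The deposited table holds linear intensities of 33252 features on 6 arrays, hybridised with biotin-labelled total RNA per the labels. How the authors corrected and normalised these intensities is not given in the sources used here. In the platform annotation 19460 features had 1 symbol, 1754 had several and 12038 were absent. For each of 18417 genes the brightest feature was used, and every member had 1 feature. The design foresaw log2(value + 1) for a linear table, which was used and understates the folds of dim genes.

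The group difference was tested two-sided with eBayes after lmFit (limma 3.58.1, R 4.3.3), which left 4 residual degrees of freedom, with Benjamini-Hochberg adjustment over all genes and a threshold of 0.05. The neighbour shift was the median deviation of the 24 nearest of 12278 brighter genes, ordered by the RefSeq table of GRCh38.p14, taken per array and subtracted before a refit. Promoter sequences are RefSeq's. Fits and motif search were tested on simulated data. The members and lists were chosen with earlier results of these data known. Named genes were all called members, the hemidesmosome genes, the markers of the set and up to 3 rises and 3 falls per list. Python 3.11.15 drew the figures. Some other members, and further genes of the lists (KRT14, KRT15, CD151, COL4A1, COL4A2, TLN2, CDH1, EPCAM, BMP1, MMP2, ADAM9, CCN1), were named after their values were seen. Marker lists of platelets (5 genes), fibroblasts (7), endothelium (5) and smooth muscle (4) held 0, 1, 0 and 0 lower genes and 0 higher ones. Over all genes 8.71% were lower and 9.04% higher. Alternatives were another normalisation, centring, filter, pseudocount, feature rule, variance model, array weights, covariates, a 1.5-fold test and each array left out.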

Additional observations from a re-analysis of the deposited data

How the results depend on the processing

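Of the 14 called members, LAMA1, LAMB2, LAMB3, LAMC3, ITGA4, ITGA5, ITGB1, ITGB5 and ITGB7 (9 genes) stayed past the threshold under every alternative in which they were tested but the test against a 1.5-fold change. That test asks for a larger change, and called 356 genes, with 4 members lower and 0 higher, against 1.25% and 0.684% of all genes. Averaging all features of a gene could not change the members' own values, since each had 1 feature, so that alternative was no test of them. With array weights 5342 genes were called, 14.9% of all genes lower and 14.1% higher, and 13 members were lower and 4 higher. ITGB3 entered the calls there as lower, and ITGB2 and ITGB8 as higher. With each array left out in turn, between 1888 and 3151 genes were called, with 7 to 12 members lower and 2 to 3 higher. The lowest member count came without the passage 38 array. With the neighbour shift taken off, LAMB1 went from 0.25 to −0.69. Scaling moved the median of all genes by at most 0.05. Centring on array medians left 10 members lower and quantile normalisation 11, and ITGA2B and LAMA2, both near 0, changed sign under each. No paired analysis was possible because the arrays carry passages or exposure times and no shared replicate numbers. The number of arrays limits the precision, and without detection calls low values of the 13 members in the dimmest 33.3% of genes, such as those of LAMA4 and the CAsE-PE values of ITGA4, may lie at background.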
